A study of Mus musculus with 2 samples.

Results

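Mir183, Mir96, Mir182 and Mir375 are 4 of the 1973 microRNA genes counted in small RNA from the midbrain of mouse embryos, and they were taken by gene symbol from both count tables. The samples form 1 group of 2 biological replicates, replicate 2 from the pooled midbrains of 51 embryos and replicate 1 from those of 69 embryos. All embryos were healthy, of strain B6NCrl, of both sexes and at embryonic day 10.5, and no allele, agent or treatment is given for them. Each library was made from RNA shorter than 30 nt. The pools hide the spread between embryos, and with no second tissue, stage or treatment the data give the levels of the 4 genes and the difference between the pools.

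MicroRNAs are short RNAs cut from a hairpin precursor, whose arms each can give a mature strand. The bases behind the first base of the mature strand, called the seed, pair with target messenger RNAs. The mir-183 cluster, made of Mir183, Mir96 and Mir182, is known as the microRNA cluster of sensory organs, expressed in hair cells of the inner ear, in photoreceptors and in sensory ganglia, and mutation of Mir96 causes progressive hearing loss in mice and humans. Mir375 lies elsewhere in the genome and is known from pancreatic islet cells, where it restrains insulin secretion, and from the pituitary and other endocrine and epithelial cells.

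The 5p mature sequences are shown first, because those of the cluster are close relatives that the counts must tell apart. Below them stands the 5p strand of Mir375, a gene outside the cluster. The seed of this strand is unlike those of the cluster, and it is not the seed of the gene's other strand. All are given 5′ to 3′ from RefSeq (GRCm38.p6), with the seed, bases 2 to 8, in capitals.
mmu-miR-183-5p: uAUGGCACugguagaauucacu
mmu-miR-96-5p: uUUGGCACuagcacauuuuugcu
mmu-miR-182-5p: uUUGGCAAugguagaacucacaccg
mmu-miR-375-5p: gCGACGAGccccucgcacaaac
The 3 cluster sequences have 3 different seeds. Counted from the 5′ end, the seed of miR-183-5p differs from that of miR-96-5p by A2U, and the seed of miR-96-5p differs from that of miR-182-5p by C8A. Both changes separate miR-183-5p from miR-182-5p, which over the compared length are the most alike of the 3, with 18 of 22 compared positions identical (81.8%). For miR-183-5p and miR-96-5p the number was 13 of 22, and for miR-96-5p and miR-182-5p it was 12 of 23. Neither arm of the 3 cluster genes, nor miR-375-5p, occurs in the transcripts of another GENCODE M21 gene, on either strand. The other strand of Mir375, mmu-miR-375-3p, was absent from the RefSeq sequences used and was not analysed here. For the cluster, full mature strands hence match no second annotated gene, which matters because reads that mapped to several places are not in the gene counts. For Mir375 this holds for the 5p strand alone, and the gene counts do not show which strand its reads come from.

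The 3 cluster genes lie on the minus strand of chromosome 6 (mm10) within 3820 bases. In the order of transcription they are Mir183 (ENSMUSG00000065619.2, chr6:30169668-30169737), Mir96 (ENSMUSG00000065586.1, chr6:30169446-30169551) and Mir182 (ENSMUSG00000076361.1, chr6:30165918-30165992). Mir183 and Mir96 are separated by 116 bases, and Mir96 and Mir182 by 3453 bases. No other gene of M21 overlaps them, so that they are intergenic in this annotation. The nearest protein-coding genes are Nrf1, 12460 bases from Mir182, and Ube2h, 41552 bases from Mir183. The nearest counted microRNA genes are Gm23049, which had no read in either library, and Mir335, 571562 bases from Mir183, which had 527707 reads in replicate 2 and 367327 in replicate 1. Mir375 (ENSMUSG00000065616.2, chr1:74900658-74900721, minus strand) is also intergenic, 1350 bases from Cfap65 and 7515 bases from the lens crystallin gene Cryba2. The counted microRNA genes on its sides, Gm25035 and Gm27943, had no reads.

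The hairpins of the cluster are shown because a gene's count takes in reads of both arms. The mature strands are in capitals.
Mir183 hairpin: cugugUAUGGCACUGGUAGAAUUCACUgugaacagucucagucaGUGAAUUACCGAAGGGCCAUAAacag
Mir96 hairpin: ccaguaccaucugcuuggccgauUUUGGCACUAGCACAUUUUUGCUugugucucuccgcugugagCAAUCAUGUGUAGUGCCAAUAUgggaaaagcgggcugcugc
Mir182 hairpin: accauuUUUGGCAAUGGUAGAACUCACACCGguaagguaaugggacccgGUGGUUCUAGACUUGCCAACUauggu
The hairpins are 70, 106 and 75 bases long, with 45.7%, 50.9% and 48% G and C, and that of Mir375 is 64 bases long with 67.2%. All 4 have the same coordinates in RefSeq and M21.

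The libraries held 3682410 reads assigned to genes in replicate 2 and 3297835 in replicate 1, which is 39.1% and 42.2% of their reads. A further 29.5% of reads in replicate 2 and 30.9% in replicate 1 mapped to more than 1 place. Levels are given as CPM, reads per 1000000 gene-assigned reads. Each read stands for a whole short RNA, so no correction for gene length was made, and levels of different genes are compared as reads and not as molecules. Intervals of counts are exact Poisson intervals at 95%, and they take in no error but that of counting, since the labels name no molecular identifiers and reads may be copies of 1 molecule. The midbrain libraries also held markers of neural progenitors and of vessels, with Mir92b at 25352 CPM in replicate 2 and 21245 CPM in replicate 1, and Mir126a of endothelium at 30780 and 26449 CPM in the same order.

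All 4 genes were well above the detection limit in both pools, and together they held 0.762% (95% Wilson interval 0.753 to 0.770%) of the gene-assigned reads in replicate 2 and 0.598% (0.589 to 0.606%) in replicate 1. Mir182 had 9549 reads in replicate 2 and 8970 in replicate 1, which is 2593 CPM (interval 2541 to 2646) and 2720 CPM (2664 to 2777). It averaged 2657 ± 89.7 CPM (SD, n = 2) and had rank 65 of the 1973 genes in each library. Its values were close to each other in the pools, and its coefficient of variation was 3.38%.

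Mir183 had 10627 reads in replicate 2 and 6028 in replicate 1, which is 2886 CPM (2831 to 2941) and 1828 CPM (1782 to 1875). Its mean was 2357 ± 748 CPM (SD, n = 2), and its rank was 63 in replicate 2 and 81 in replicate 1. Replicate 2 was thus the higher library for this gene, with a coefficient of variation of 31.7%.

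Mir375 had 4173 reads in replicate 2 and 2492 in replicate 1, or 1133 CPM (1099 to 1168) and 756 CPM (726 to 786). Its mean was 944 ± 267 CPM (SD, n = 2), at rank 103 in replicate 2 and 118 in replicate 1. Mir96 had 3695 reads in replicate 2 and 2217 in replicate 1, or 1003 CPM (971 to 1036) and 672 CPM (645 to 701). Its mean was 838 ± 234 CPM (SD, n = 2), at rank 109 in replicate 2 and 127 in replicate 1. Both genes were higher in replicate 2, with coefficients of variation of 28.3% for Mir375 and 27.9% for Mir96.

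**Figure D1:**
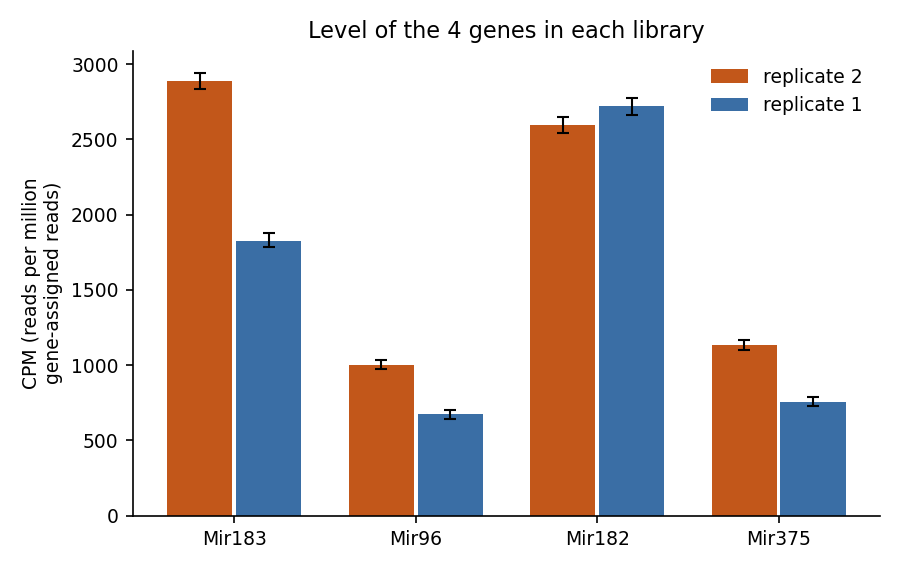
Level of each gene in CPM (y axis, from 0) in replicate 2 (orange) and replicate 1 (blue). Bars are single libraries and whiskers are exact 95% Poisson intervals of the count. Mir183, Mir96 and Mir375 were higher in replicate 2, whereas Mir182 stood at 2593 and 2720 CPM.

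In order of mean level the genes were Mir182, Mir183, Mir375 and Mir96. Mir182 and Mir183 did not differ beyond their spread, and their order was opposite in the libraries. There were 1.11 reads of Mir183 per read of Mir182 in replicate 2 (counting interval 1.08 to 1.14) and 0.672 in replicate 1 (0.650 to 0.694). Mir183 lay above Mir375 and Mir96 in both libraries, and its lower value of 1828 CPM was above the higher values of those genes. The means of Mir375 and Mir96 differed by less than their SDs. Within a library, however, their order was the same, with 1.13 reads of Mir375 per read of Mir96 in replicate 2 (1.08 to 1.18) and 1.12 in replicate 1 (1.06 to 1.19).

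Nearly all reads of the members lay on 1 strand. In the fuller of the strand columns, read here as the strand of the gene itself, Mir96 and Mir375 had all of their reads. Mir183 had 3 reads in replicate 2 and 5 in replicate 1 in the other strand column, and Mir182 had 6 and 7.

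Within the cluster the share of each gene differed between the pools. The summed reads of the 3 genes were 23871 in replicate 2 and 17215 in replicate 1, or 0.648% (0.640 to 0.656%) and 0.522% (0.514 to 0.530%) of the gene-assigned reads. Mir182 held 40.0% of the cluster's reads in replicate 2 (Wilson interval 39.4 to 40.6%) and 52.1% in replicate 1 (51.4 to 52.9%). Mir183 held 44.5% in replicate 2 (43.9 to 45.1%) and 35.0% in replicate 1 (34.3 to 35.7%). Mir96 held the smallest share, 15.5% in replicate 2 (15.0 to 15.9%) and 12.9% in replicate 1 (12.4 to 13.4%). Averaged over the libraries the shares were 46.1% ± 8.56 for Mir182, 39.8% ± 6.72 for Mir183 and 14.2% ± 1.84 for Mir96 (SD, n = 2).

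**Figure D2:**
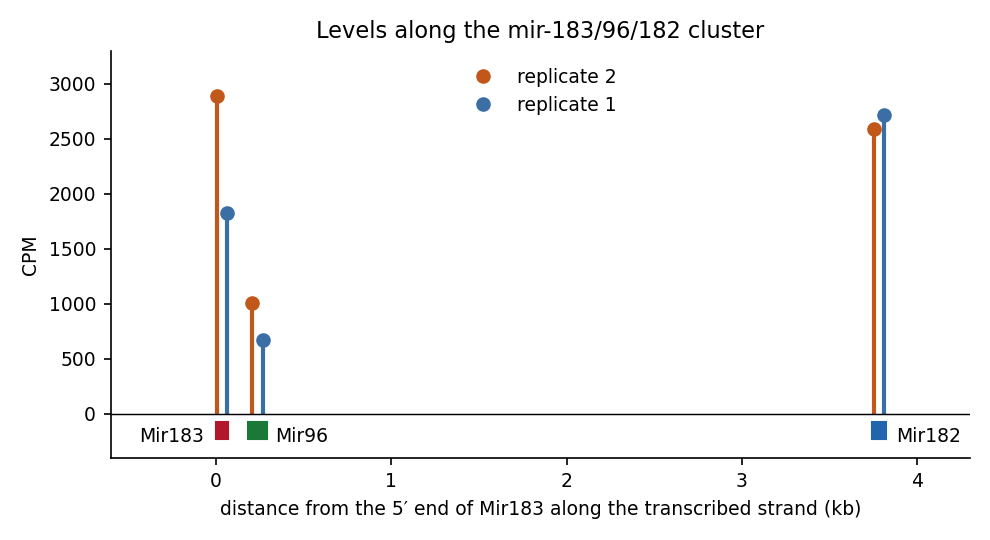
CPM (y axis) of the 3 cluster genes in replicate 2 (orange) and replicate 1 (blue) against the distance of each hairpin from the 5′ end of Mir183 in kb (x axis), with boxes below the axis for the hairpins to scale. Mir183 and Mir96, 116 bases apart, were higher in replicate 2, while Mir182 had 2593 CPM in replicate 2 and 2720 CPM in replicate 1.

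The difference between the pools was tested for each gene on the reads of the libraries, with library sizes scaled by TMM (trimmed mean of M values). The exact binomial test compares these 2 libraries and not conditions. With Benjamini-Hochberg adjustment over all 485 genes with at least 10 reads in sum, 241 genes (49.7%) were called at an adjusted level of 0.05, 112 higher in replicate 2 (23.1%) and 129 lower (26.6%). A call is hence common in these data, and all 4 members were among those called, 3 higher and 1 lower. Calls were more frequent in genes with many reads, such as the members. With the test limited to the 338 genes of mean CPM 10 or more, 224 were called, 106 higher in replicate 2 and 118 lower. The share over all 485 genes is thus too low as a background for the members and for the lists of genes below.

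Mir183 was 1.58-fold higher in replicate 2 (counting interval 1.53 to 1.64), a log2 ratio of 0.66 with an adjusted p of 7.81e-184 in the exact binomial test. Mir375 was 1.50-fold higher (1.43 to 1.58), a log2 ratio of 0.59 with an adjusted p of 4.01e-59 in the same exact test. Mir96 was also 1.50-fold higher (1.42 to 1.58), a log2 ratio of 0.58 with an adjusted p of 1.96e-51 in the exact test. These 3 genes lie at 2 loci on different chromosomes, and their ratios were alike.

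Mir182 was 0.957 times its level in replicate 1 (0.929 to 0.985), a log2 ratio of −0.06 with an adjusted p of 0.00631 in the exact binomial test. With DESeq2 size factors its log2 ratio was −0.03 and the adjusted p of the exact test was 0.264, so that its call depends on the scaling. The log2 ratio of Mir183 exceeded that of Mir182 by 0.73 (counting interval 0.67 to 0.79), and that of Mir96 exceeded it by 0.65 (0.56 to 0.73). These differences within the cluster do not depend on the scaling of the libraries. Between Mir183 and Mir96 the difference was 0.08 (−0.01 to 0.17), between Mir183 and Mir375 it was 0.07 (−0.01 to 0.16), and between Mir375 and Mir96 it was 0.01 (−0.10 to 0.11). Within counting error, the ratio of Mir375 could thus exceed that of Mir96 by up to 0.11 or fall below it by up to 0.10. The summed reads of the cluster were 1.25-fold higher in replicate 2 (1.22 to 1.27).

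Over the 338 genes whose mean reached 10 CPM, the log2 ratio had an SD of 0.57, with 0.15 expected from counting alone, and a median of −0.03. Of these genes 23 (6.80%) had a ratio above that of Mir183, 27 (7.99%) above Mir375, 30 (8.88%) above Mir96 and 184 (54.4%) above Mir182. In the 94 genes between 500 and 5000 CPM, which include the members, the SD was 0.39 and the quartiles were −0.25 and 0.17. Here 2 genes had a ratio above Mir183, 3 above Mir375, 4 above Mir96 and 50 above Mir182. The first 3 members were thus near the top of their range of levels and Mir182 near its middle.

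**Figure D3:**
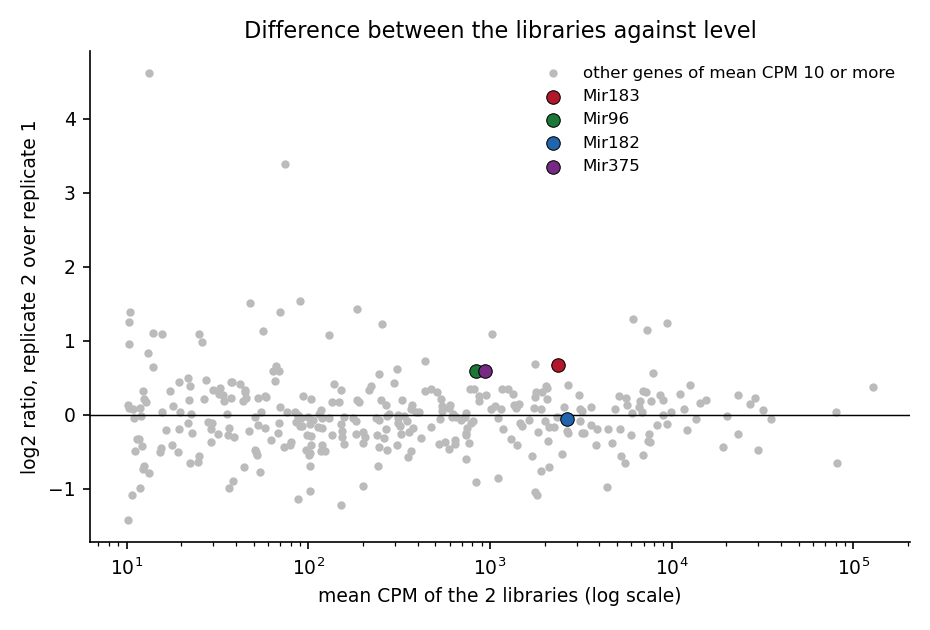
Log2 ratio of replicate 2 over replicate 1 (y axis, TMM-scaled) against mean CPM (x axis, log scale) for the 338 genes of mean CPM 10 or more. Mir183, Mir96 and Mir375 lie at log2 ratios of 0.58 to 0.66 and Mir182 at −0.06, next to the middle of the grey points for the other genes.

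The genes of most similar values were found by the Euclidean distance of log2 CPM over the 2 libraries, which with 2 points measures level more than pattern. The nearest gene to Mir96 was Mir429 of the epithelial mir-200 family, on chromosome 4, at a distance of 0.02. Mir429 had 993 CPM in replicate 2 and 666 CPM in replicate 1, and was also close to Mir375, at 0.26. Nearest to Mir375 outside the members was Mir28a at 0.23, with 1038 CPM in replicate 2 and 863 CPM in replicate 1. The other gene close to Mir96 was Mir18b at 0.17, with 908 CPM in replicate 2 and 716 CPM in replicate 1.

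Mir182 was nearest to Mir181a-1 at 0.11, with 2445 CPM in replicate 2 and 2869 CPM in replicate 1, and to Mir22 at 0.13, with 2458 and 2937 CPM. Mir183 had no gene as close. Its nearest were Mir219a-1 at 0.32, with 2312 CPM in replicate 2 and 1813 CPM in replicate 1, and Mir139 at 0.33, with 2300 and 1768 CPM. Mature strands of Mir219a-1 and Mir181a-1 occur in the hairpin of another counted gene, so that these genes can have lost reads that mapped to several places.

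The cluster was set beside the other groups of neighbouring microRNA genes, defined as genes on 1 strand with gaps of at most 10 kb and with 3 or more genes of mean CPM 10 or more. There were 13 such groups besides it, and genes below 10 CPM were left out of the values of a group. From its lowest to its highest log2 ratio the mir-183 cluster spanned 0.73, and 2 of the 13 others were wider. The median of the others was 0.54 and their range 0.19 to 1.12. A group with more genes can span more, and the 4 other groups of exactly 3 genes had a median of 0.28 and a highest value of 1.09. In most of the 13 groups the least abundant gene had far fewer reads than in the mir-183 cluster. Only 2 other groups had every gene that was kept at 500 CPM or more. The mir-302 group led by Mir302a spanned 0.20 without Mir367, which had a mean of 5.37 CPM and was left out. The group led by Mir93 spanned 0.19. One of the 2 wider groups was that of Mir429, Mir200b and Mir200a (1.09), in which Mir200a was lower in replicate 2 while the other members were higher. The other was the large group led by Mir487b on chromosome 12, with 30 such genes (1.12). In level the cluster was the most even of these groups, with 3.17-fold between Mir182 and Mir96 in mean CPM, against a median of 44.7-fold in the others.

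**Figure D4:**
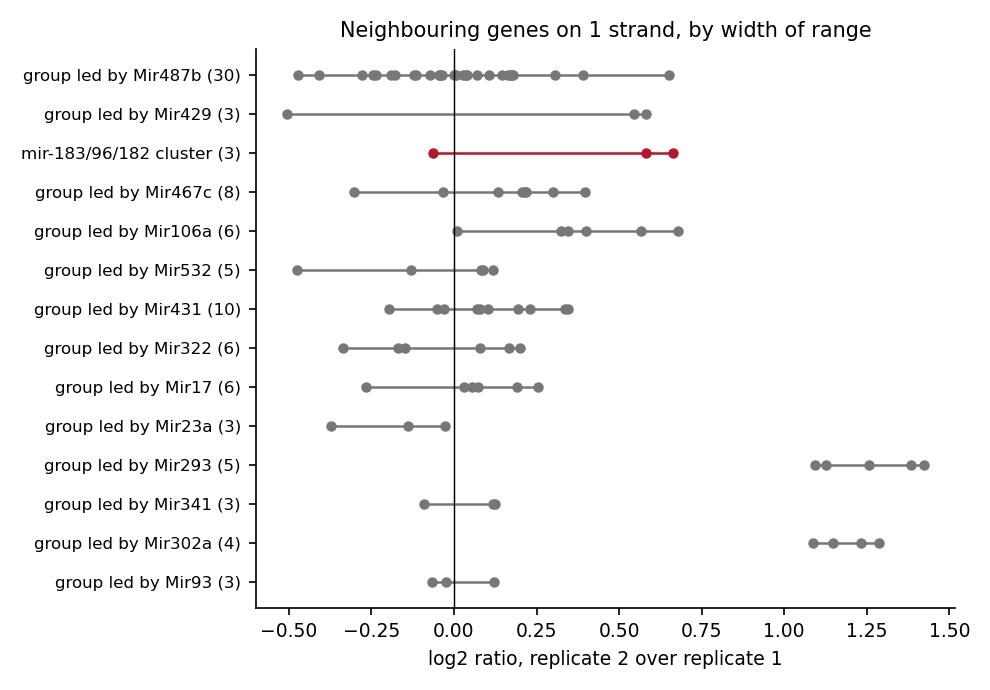
Log2 ratio of replicate 2 over replicate 1 (x axis) of each gene of mean CPM 10 or more (points) in 14 groups of neighbouring microRNA genes. Groups are sorted from the widest range at the top. The number of genes of mean CPM 10 or more is in parentheses, and lines join the lowest and highest gene. The mir-183 cluster (red) spans −0.06 to 0.66, with Mir182 apart from the other genes.

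The seed of miR-96-5p is shared with mmu-miR-1271-5p (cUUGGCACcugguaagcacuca, RefSeq, seed in capitals) of Gm24195 on chromosome 13. Gm24195 had 0 reads in both libraries, which allows up to 3 reads or 0.815 CPM in replicate 2 and 0.910 CPM in replicate 1. No other mature sequence of the RefSeq table has the seed of miR-183-5p, miR-182-5p or miR-375-5p. The seed of mmu-miR-375-3p was not analysed here.

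Several lists of microRNAs of cell types that border or resemble sensory and endocrine tissue were read beside the members. The epithelial list holds the mir-200 family, which keeps epithelial cells from becoming mesenchymal, and Mir203 and Mir205 of skin and other surface epithelia. Of its 7 genes 5 were higher and 2 lower in replicate 2 in the exact binomial test. Over all 485 genes tested 23.1% were higher and 26.6% lower. Of the 338 genes of mean CPM 10 or more, which include all 7, 106 were higher and 118 lower. The median log2 ratio of the list was 0.54, beside 0.59 for the 4 members and −0.02 over all genes tested. Genes of 1 locus count singly in these medians, so that they rest on few loci. Mir429, Mir200b and Mir200a are neighbours on chromosome 4, Mir200c and Mir141 on chromosome 6, and 3 of the 4 members form the mir-183 cluster. The summed level of the epithelial list was 4092 CPM in replicate 2 and 3397 CPM in replicate 1, and none of its genes was at 0. Mir205 had 1472 CPM in replicate 2 and 1213 CPM in replicate 1 (log2 ratio 0.28), Mir429 had 993 and 666 CPM (0.58), and Mir203 had 666 and 872 CPM (−0.38). The mir-200 genes Mir200c, Mir141 and Mir200b had log2 ratios of 0.73, 0.59 and 0.54, and Mir200a had −0.50.

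All 3 genes of the eye and pigment list were higher in replicate 2, beside 23.1% of all genes tested. Of the 338 genes of mean CPM 10 or more, 106 were higher. The median log2 ratio of the list, 3.38, is that of Mir211, with 504 reads in replicate 2 and 43 in replicate 1. The summed level of the list was 431 CPM in replicate 2 and 249 CPM in replicate 1. Mir204, of lens, retinal pigment epithelium and choroid plexus, had 268 CPM in replicate 2 and 235 CPM in replicate 1 (0.19). Mir211 of pigment cells had 137 and 13.0 CPM (3.38). The third gene, Mir184, had 95 reads in replicate 2 and 3 in replicate 1 (4.62), so that its ratio rests on few reads. Whether these genes mark photoreceptors or hair cells, the best known sites of the mir-183 cluster, was not tested.

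The endocrine and pancreas list, made of the mir-7 genes of endocrine cells and the pancreatic Mir216a, Mir216b and Mir217, was lower in replicate 2, where Mir375 was higher. Of its 6 genes 5 were lower in replicate 2, none was higher, and Mir216a was not called (log2 ratio −0.16). Over all genes tested, 26.6% were lower and 23.1% higher. Of the 338 genes of mean CPM 10 or more, 118 were lower and 106 higher. The median of the list was −0.46, beside −0.02 over all genes tested. Its summed level was 947 CPM in replicate 2 and 1368 CPM in replicate 1. Mir217 had 304 CPM in replicate 2 and 429 CPM in replicate 1 (−0.49), and Mir7-1 had 208 and 282 CPM (−0.44). Mature strands of Mir7-1 and Mir7-2 occur in another counted hairpin, so that their levels can be too low.

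Of the neuronal list 13 of 14 genes were counted and 11 were tested, of which 6 were lower, none higher and 5 not called. Over all genes tested, the shares were 26.6% lower and 23.1% higher. Of the 338 genes of mean CPM 10 or more, 118 were lower and 106 higher. The log2 ratios of the neuronal list ran from −1.15 to 0.91 with a median of −0.70. Its summed level was 2608 CPM in replicate 2 and 4452 CPM in replicate 1. Mir153 had 1407 CPM in replicate 2 and 2403 CPM in replicate 1 (−0.77), and Mir137 had 782 and 1424 CPM (−0.86). At the other end were Mir124a-3, with 34 reads in replicate 2 and 16 in replicate 1 (0.91, not called), and Mir128-1 (0.04, not called). At least 8 of the counted genes of this list can lose reads to copies at other loci. Of single markers and blood, Mir92b and Mir126a had log2 ratios of 0.26 and 0.22, the 3 erythroid genes had −0.26 to 0.98 with a summed level of 374 CPM in replicate 2 and 404 CPM in replicate 1, and the hepatocyte gene Mir122 had 15.2 and 5.76 CPM. Fewer cells of a type and less RNA per cell cannot be told apart in such pools. The part of other cell types in the difference of Mir183, Mir96 and Mir375 between the pools was not tested.

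**Figure D5:**
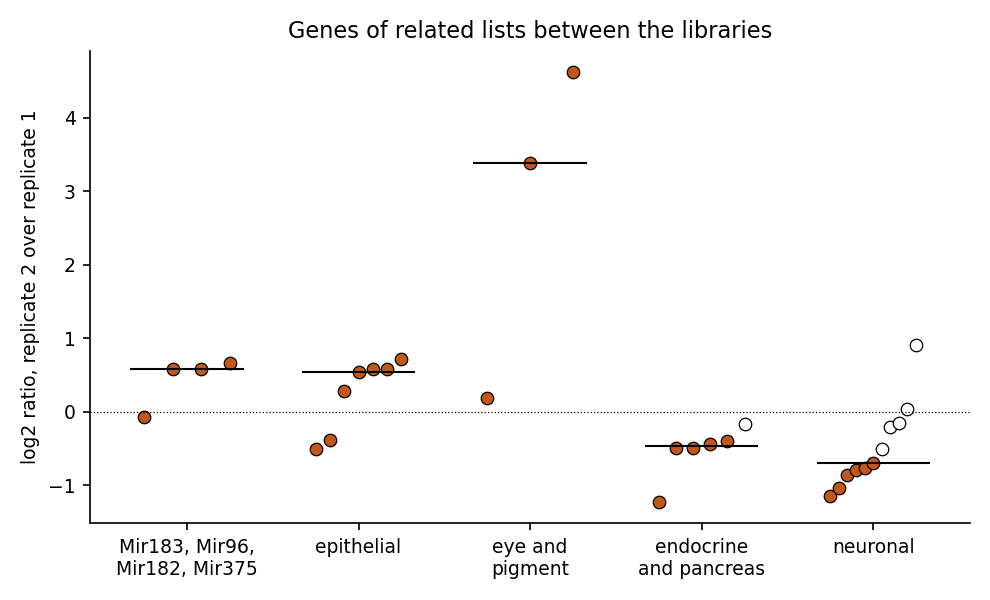
Log2 ratio of replicate 2 over replicate 1 (y axis) of the 4 members and of the tested genes of 4 lists (x axis). Points are genes, filled where the exact binomial test called them, and lines are medians. The epithelial list has a median of 0.54, with 5 genes higher and 2 lower in replicate 2, and the endocrine and pancreas list has −0.46.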

How the data were processed

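The authors deposited raw read counts per microRNA gene, 1 table per library, from reads aligned to mm10 and counted on GENCODE M4, per the deposited description of each file. The counter, trimming and aligner were not given in the sources used here. A table has 1973 genes and 4 rows that name no gene, which hold 60.9% of the reads of replicate 2 and 57.8% of replicate 1 and were left out of library sizes. Of the 3 count columns the first was used, which for each gene adds up the other 2. The second count column, with 97.3% of gene-assigned reads in replicate 2 and 97.4% in replicate 1, was taken as the gene's strand. Which strand it is, is not stated.

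Gene IDs without version were matched to GENCODE M21 (GRCm38, the build of mm10), 1894 of 1973. RefSeq sequences were tied to genes by overlap on the strand, for 916 genes. Coordinates are 1-based. CPM, log2 ratios (0.5 added reads, TMM from edgeR 4.0.16) and two-sided exact binomial tests, adjusted by Benjamini-Hochberg, were computed with Python 3.11.15, scipy 1.17.1 and statsmodels 0.14.6. Intervals of ratios are exact conditional ones at 95%, and those of differences of log2 ratios use a normal approximation to counting error. Each replicate is 1 library of 1 pool, and a p-value here measures counting error between 2 libraries.

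Named are the 4 members, the 2 genes of nearest level to each, genes of shared seed, the nearest counted genes, and the 2 or 3 most abundant genes of each list. Mir200a, Mir200b, Mir200c and Mir141 are further members of the epithelial list, and the leading genes of neighbouring groups and the other listed genes named were chosen after their values were seen. The members and lists were chosen with earlier results of these data known. Alternatives were DESeq2 size factors (DESeq2 1.42.0), total counts, the strand column, other filters and added reads, thinning, other denominators of CPM, and leaving out each replicate, the most abundant gene or genes that share mature sequence. Mature arms were not separated.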

Additional observations from a re-analysis of the deposited data

How the results depend on the processing

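Under 8 alternatives each, the log2 ratios stayed between 0.64 and 0.70 for Mir183, 0.56 and 0.62 for Mir96 and 0.57 and 0.62 for Mir375, all called, and between −0.09 and −0.03 for Mir182, whose call was lost with DESeq2 size factors (−0.0295, adjusted p 0.264 in the exact binomial test). DESeq2 size factors shifted all log2 ratios by 0.03. The number of genes called was 203 to 241 and stayed within 1.5 times. Over all reads of the library, the means were 949.8 CPM for Mir183, 338 CPM for Mir96, 1081 CPM for Mir182 and 381 CPM for Mir375, and without the reads of the most abundant gene Mir182 had 3044 CPM, by construction of the denominator. Leaving out 1 replicate gave ranks of 63 to 81 for Mir183 and 109 to 127 for Mir96, and the strand column gave 63 for Mir182. The SD of log2 ratios was 0.41 at a mean CPM of 100 or more and 0.75 at 1 or more. Apart from leaving out a replicate, 56 other recomputed values kept their direction and call or moved by less than the spread. With 2 libraries, leaving out 1 gives the value of the other, which says nothing about stability, and the reads of Mir183 per read of Mir182 were then 0.672 or 1.11, on opposite sides of equality. No paired analysis was possible because there is 1 group. With 2 libraries, differences between pools and between library preparations cannot be told apart.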

Other observations

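The seed of miR-96-3p, the other arm of Mir96, is shared with mmu-miR-3475-5p (aAAUCAUGuacccccacagagg, seed in capitals) of Mir3475 on chromosome X. Mir3475 had 93 reads in replicate 2 and 108 in replicate 1, or 25.3 and 32.7 CPM (mean 29.0 ± 5.30, SD, n = 2). Its log2 ratio was −0.37, with an adjusted p of 0.137 in the exact binomial test. How many of the Mir96 reads come from this arm cannot be read from counts per gene.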
